A study of Homo sapiens with 6 samples.

Results

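The genes described here were 33 genes of the cellular response to low oxygen. They comprised the subunits of the hypoxia-inducible factors (HIFs), the enzymes and the ubiquitin ligase subunit that sense oxygen and limit HIF, and HIF target genes outside glycolysis. Members were matched by symbol, from a list written with earlier results of these data known, and each of the 33 had 1 row among the 58825 genes of the deposited table. RNA-seq was performed on 6 libraries of HK-2 cells, a proximal tubular epithelial line from human kidney that was made immortal in culture, and the 2 groups shared the cell line and differed in treatment. The 3 Control libraries came from untreated cells, for which no time is given, and the 3 OX-LDL libraries came from cells treated with 25 μg/ml OX-LDL, an oxidized low-density lipoprotein, for 48 h. In the study's methods, cells were kept in low serum before OX-LDL was added, and no step in low oxygen is named. Nothing in the labels places the libraries of a group in separate cultures, so p-values measure only the spread between these libraries, which may be technical.

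HIF is a pair of proteins, an oxygen-regulated alpha subunit (HIF1A or EPAS1, also called HIF-2 alpha) and a stable partner (ARNT or ARNT2). When oxygen is available, prolyl hydroxylases (EGLN1, EGLN2 and EGLN3) mark the alpha subunit, VHL binds the marked protein and it is degraded, while the asparagine hydroxylase HIF1AN blocks its contact with coactivators. When oxygen is scarce the alpha subunit persists, enters the nucleus and binds a short DNA element near genes for oxygen delivery, mitophagy, pH control and collagen maturation. This control acts mainly on the protein, which was not measured here. In the kidney, tubular cells are known mainly for HIF1A, and EPAS1 is best known in interstitial and endothelial cells.

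The core of that DNA element is ACGTG or GCGTG. Promoter windows of 300 bases, from 250 before to 50 after a gene's start, were read from RefSeq (GRCh38.p14) for 27 of the 33 genes and searched for both cores on both strands. Some genes had several windows and were counted once, and a RefSeq start can differ from the gene's start in the deposited table. At least 1 core was present in 22 of the 27 (81.5%), beside 52.4% of all 27305 genes in the promoter table and 69.3% of the 10995 tested genes with an entry. ACGTG alone was present in 17 of the 27 (63.0%), beside 24.9% and 32.1%. A core was present in 10 of 12 members that were called higher in OX-LDL, in all 5 that were called lower and in 7 of 10 that were not called. The median share of G and C was 69.2% over the members' windows and 58.7% over all windows of the table, and the cores hold both letters. Matches are letters in a window and not measured binding. The 6 windows below belong to the members with an entry and a core whose fitted values rose most (3) and fell most (3), so that both directions can be compared. They are written 5′ to 3′ on the strand of the gene, with each core in capitals, and a core on the opposite strand reads CACGT or CACGC. Where 2 cores overlap, as in the palindrome CACGTG, they form 1 run of capitals.

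CA9 (chr9:35673678-35673977, + strand, 1 core): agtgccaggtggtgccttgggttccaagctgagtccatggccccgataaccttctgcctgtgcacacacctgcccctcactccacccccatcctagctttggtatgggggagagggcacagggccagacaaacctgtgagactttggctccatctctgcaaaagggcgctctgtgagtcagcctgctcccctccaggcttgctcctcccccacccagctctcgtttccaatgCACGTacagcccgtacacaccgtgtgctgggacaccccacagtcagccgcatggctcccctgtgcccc

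PPFIA4 (chr1:203026241-203026540, + strand, 3 cores): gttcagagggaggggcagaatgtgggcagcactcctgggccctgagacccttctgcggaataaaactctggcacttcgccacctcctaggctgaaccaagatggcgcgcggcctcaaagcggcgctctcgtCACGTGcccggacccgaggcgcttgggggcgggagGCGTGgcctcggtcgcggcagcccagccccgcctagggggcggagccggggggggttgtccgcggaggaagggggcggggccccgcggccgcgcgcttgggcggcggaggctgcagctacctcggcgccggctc

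BNIP3 (chr10:131981874-131982173, - strand, 6 cores): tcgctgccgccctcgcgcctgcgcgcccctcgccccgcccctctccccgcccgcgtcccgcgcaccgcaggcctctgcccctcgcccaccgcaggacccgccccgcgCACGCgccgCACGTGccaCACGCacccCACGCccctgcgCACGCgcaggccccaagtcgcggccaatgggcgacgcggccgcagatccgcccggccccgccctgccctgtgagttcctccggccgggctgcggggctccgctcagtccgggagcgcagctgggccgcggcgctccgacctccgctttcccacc

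EPAS1 (chr2:46297157-46297456, + strand, 1 core): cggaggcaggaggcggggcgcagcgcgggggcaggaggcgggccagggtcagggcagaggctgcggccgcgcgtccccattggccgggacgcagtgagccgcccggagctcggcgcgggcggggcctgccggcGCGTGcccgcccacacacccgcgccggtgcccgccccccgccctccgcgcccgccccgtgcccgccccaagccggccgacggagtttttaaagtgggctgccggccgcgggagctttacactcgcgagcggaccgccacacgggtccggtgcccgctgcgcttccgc

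DDIT4 (chr10:72273674-72273973, + strand, 4 cores): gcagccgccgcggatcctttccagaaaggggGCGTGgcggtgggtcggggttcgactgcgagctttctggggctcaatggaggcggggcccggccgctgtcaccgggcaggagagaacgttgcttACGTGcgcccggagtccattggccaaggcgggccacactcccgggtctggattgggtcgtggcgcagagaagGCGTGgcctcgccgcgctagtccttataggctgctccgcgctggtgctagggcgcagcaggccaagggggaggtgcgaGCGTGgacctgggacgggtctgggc

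BHLHE41 (chr12:26124988-26125287, - strand, 3 cores): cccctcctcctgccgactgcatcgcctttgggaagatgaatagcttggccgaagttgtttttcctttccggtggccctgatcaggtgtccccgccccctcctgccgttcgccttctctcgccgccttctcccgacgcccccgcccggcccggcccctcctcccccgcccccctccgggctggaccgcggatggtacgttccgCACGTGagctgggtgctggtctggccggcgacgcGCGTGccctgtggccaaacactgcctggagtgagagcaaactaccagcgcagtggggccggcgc

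The number of cores did not separate the directions in these 6 windows. Of the 3 genes that rose, CA9 had 1 core and BNIP3 had 6, and of the 3 that fell, EPAS1 had 1 and DDIT4 had 4. EGLN3 and P4HA2, which also rose by more than 2-fold (P4HA2 only just so), had no core in their windows.

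The deposited table pairs, for each gene and library, an estimated count with FPKM, the number of fragments per kilobase of transcript after scaling by library size. Libraries held 62561347 to 76797607 counts, at about 4 counts per read pair, and a library with at most 12 counts of a gene, or 3 read pairs, was read as not detecting it. This detection limit covers counting error only. Of the proximal tubule markers, 3 of 8 reached a mean of 0.1 FPKM (GGT1, MME and PAX8), LRP2 was at 0 counts in every library and CUBN, SLC34A1, AQP1 and ANPEP were under 0.1 FPKM. The summed level of these 8 markers was 62.8 to 80.1 FPKM in Control and 35.6 to 45.7 FPKM in OX-LDL. Epithelial markers (5 of 5 at 0.1 FPKM or more, with CDH1 only just so at a mean of 0.101) summed to 129 to 153 and 178 to 225 FPKM. Endothelial markers (0 of 6) summed to at most 0.122 FPKM in any library. Immune markers (2 of 6) summed to 3.19 to 7.85 FPKM in Control and 9.2 to 14.0 FPKM in OX-LDL, nearly all of it CD68, with PTPRC under 0.1 FPKM and TYROBP at 0 counts. Fibroblast markers (2 of 6, mostly LUM, with DCN at 0 counts) summed to 10.1 to 12.0 and 8.76 to 14.1 FPKM. The part of these differences in the results was not tested. In bulk libraries, fewer cells of a type and less RNA per cell cannot be told apart.

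Of the 33 genes, 32 reached a mean of 0.1 FPKM and were tested, and ARNT2 was not. In OX-LDL, 14 of the 32 were higher and 6 were lower at an adjusted p-value under 0.05 (edgeR's quasi-likelihood test, adjusted over all 19510 genes tested), which is called higher or lower from here on. The 14 make 43.8% of the 32, beside 7.91% of all tested genes that were called higher. The 6 make 18.8%, beside 7.42% that were called lower, and 15.3% of all tested genes were called in either direction. CA9 reached the minimum of 0.1 FPKM only through its OX-LDL libraries, so a difference was built into its test, and without it 13 of 31 were called higher (41.9%, median log2 fold change of the 31 genes 0.41). The median log2 fold change (OX-LDL over Control) was 0.43 over the 32 genes and -0.0043 over all tested genes. At mean levels of 1 FPKM or more, 12 of 29 members were called higher, where 11.0% of such genes were, and 6 were called lower, where 10.3% were. With the limits of the study (a fold above 2 or under 0.5 with p under 0.05 before adjustment), 7 members were higher and 3 were lower, beside 3.19% and 3.16% of all tested genes. Among these members, P4HA2 (log2 fold change 1.01) and DDIT4 (-1.001) lay at the fold limit. DDIT4 missed it with DESeq2 or RLE factors (-0.9963 in both), counts divided by 4 (-0.9992) or a minimum of 1 FPKM (-0.9933). P4HA2 missed it with library size only (0.9835) and with limma (0.9879, 0.9582 and 0.7388 with 0.01, 0.1 and 1 added to FPKM). Both also missed it in some fits that left out a library. In 20 of the 32 tested members every OX-LDL library had a higher FPKM than every Control library, as in 16.8% of all tested genes, and in 7 every OX-LDL library was lower, as in 20.5%. Of the 12 members not called, 7 had an unadjusted p-value under 0.05, 6 of them in the direction of a rise. The share of all uncalled genes at that limit was not worked out, so nothing is read from this count.

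Regulators and targets were counted separately. Of the 8 tested regulators, 2 were called higher and 2 lower (25.0% each, median log2 fold change -0.039). Of the 24 targets, 12 were called higher (50.0%) and 4 lower (16.7%), with a median of 0.49. The shares of all tested genes were 7.91% and 7.42%. CA9 is among the 12, and this split was not recounted without it. Leaving out a library reduced the number of members called higher to 7 (OX-LDL replicate 3 left out), 8 (Control replicate 2) and 9 (OX-LDL replicate 1), while 3.17%, 3.2% and 3.44% of all tested genes were called higher in those fits.

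**Figure D1:**
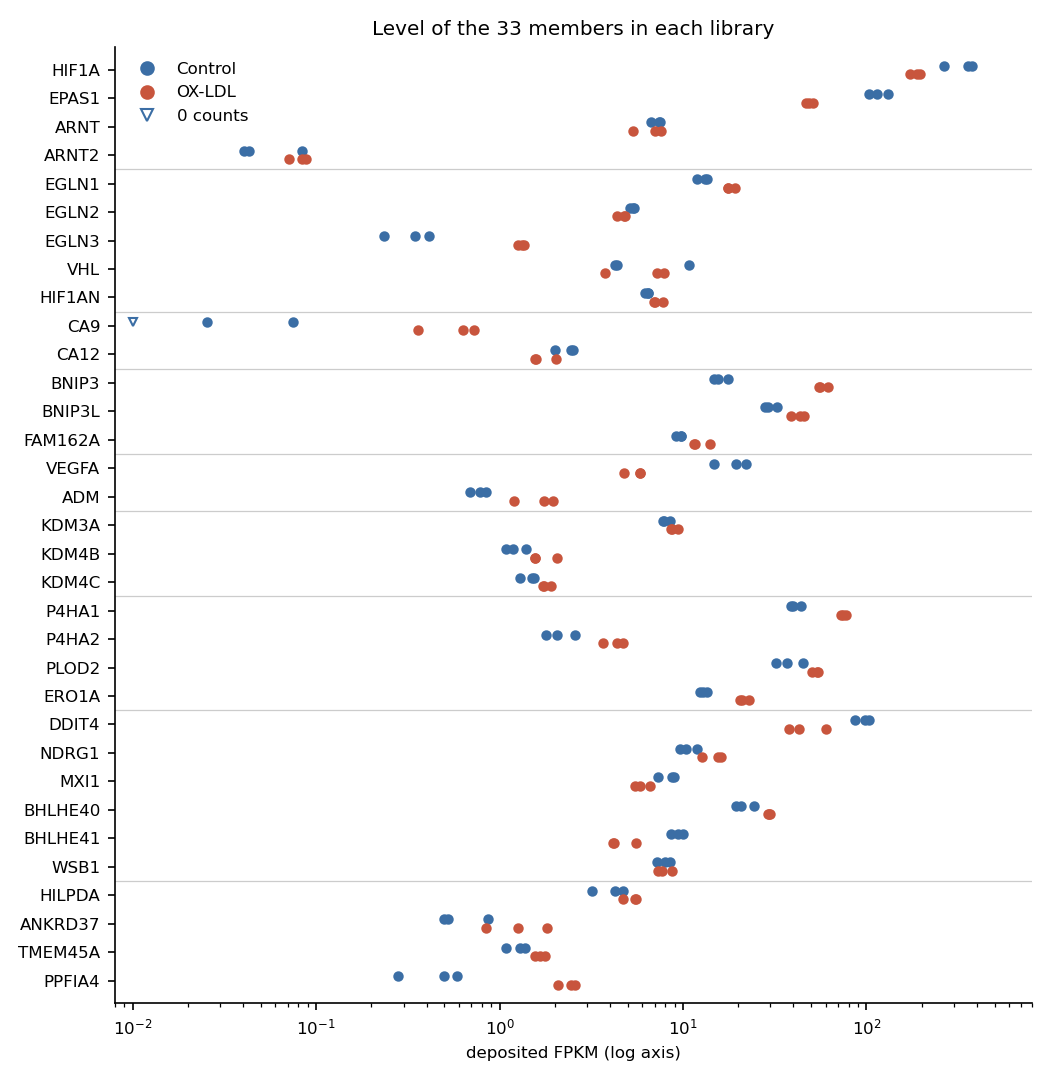
Deposited FPKM (log axis) of the 33 genes in each of the 6 libraries, with Control and OX-LDL in separate colours. HIF1A stood highest at 172 to 375 FPKM, and CA9 stood lowest in Control, where 1 library had no count.

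**Figure D2:**
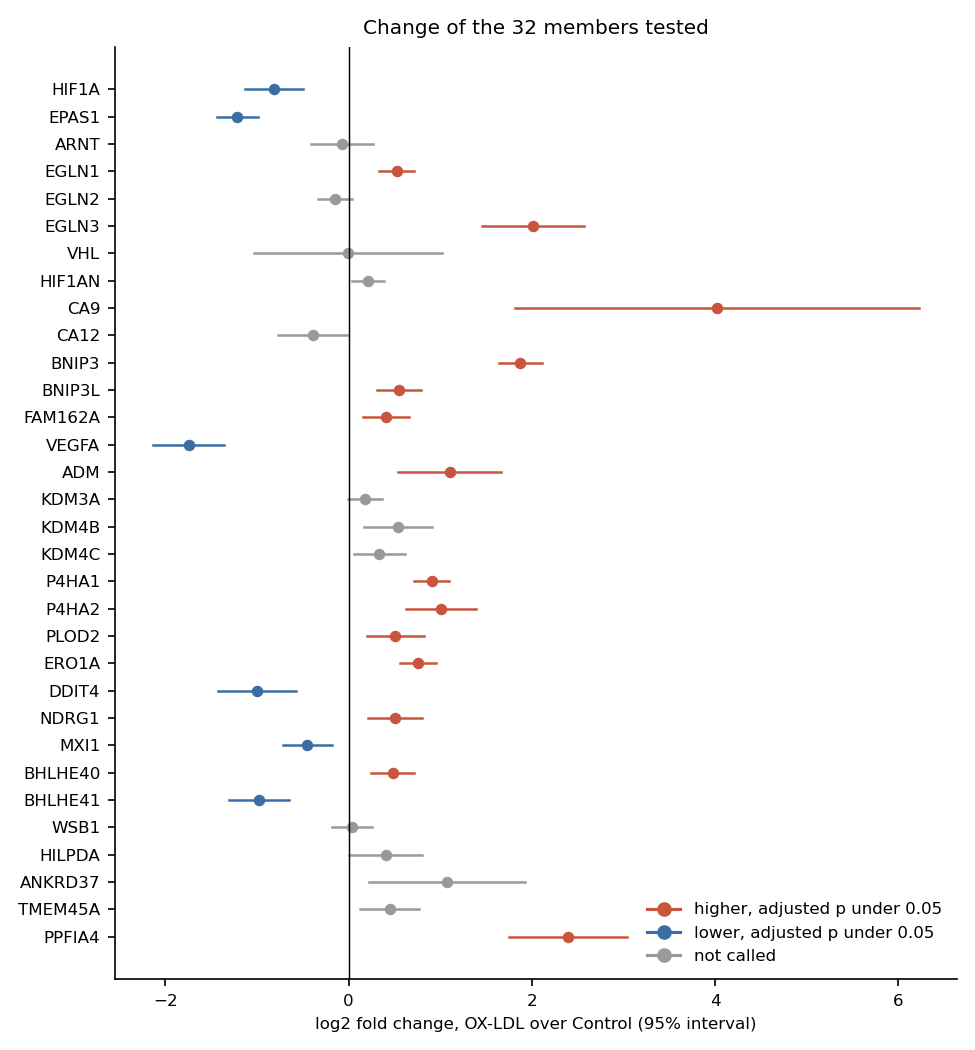
Log2 fold change (OX-LDL over Control) of the 32 tested genes with the 95% interval from edgeR's fit, coloured by whether the gene was called. PPFIA4 and EGLN3 rose most among genes detected in every library, VEGFA and EPAS1 fell most, and the interval of CA9 is the widest because Control held at most 11 counts.

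Both oxygen-regulated subunits fell. HIF1A (ENSG00000100644, chromosome 14, 61695513 to 61748258, GRCh38) encodes the alpha subunit of HIF-1 and was the 48th most abundant of the tested genes in Control by FPKM. It stood at 375, 356 and 266 FPKM in Control and at 195, 172 and 188 FPKM in OX-LDL. Every OX-LDL library lay below every Control library, and the lowest Control library was the third. The log2 fold change was -0.82 ± 0.13 (standard error, SE, with adjusted p = 0.0113), and leaving out a library gave adjusted p-values of 0.00587 to 0.0468. HIF1A-AS1 and HIF1A-AS2 lie on the opposite strand of the HIF1A locus, with at most 168 counts in any library. Whether the authors' counting used the strand is not stated, so reads of overlapping genes may have been shared, here and for the overlaps named further on.

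EPAS1 (ENSG00000116016, chromosome 2, 46293667 to 46386696), the alpha subunit of HIF-2, stood at 115, 132 and 104 FPKM in Control and at 48.4, 47.1 and 51.5 FPKM in OX-LDL. The groups were well apart and the OX-LDL libraries lay close together. The log2 fold change was -1.22 ± 0.094 (SE, adjusted p = 0.00144). The ratio of HIF1A to EPAS1 FPKM was 3.28, 2.71 and 2.56 in Control and 4.02, 3.65 and 3.64 in OX-LDL. EPAS1 thus lost the larger share, and the ratios did not overlap.

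Neither partner subunit was called. ARNT, which pairs with both alpha subunits, stood at 7.46, 7.41 and 6.71 FPKM in Control and at 5.34, 7.64 and 7.06 FPKM in OX-LDL. The groups overlapped, and the 95% interval of its log2 fold change of -0.074 ran from -0.41 to 0.27 (adjusted p = 0.778). ARNT2, the partner used mainly in neurons, had 28 to 58 counts in Control and 41 to 62 in OX-LDL, above the detection limit but with a mean under 0.1 FPKM in both groups.

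Among the oxygen sensors, EGLN1 and EGLN3 rose and EGLN2 was not called. EGLN1 (ENSG00000135766, chromosome 1, 231363751 to 231425044), the main prolyl hydroxylase for HIF1A and itself a HIF target, stood at 13.2, 13.5 and 11.9 FPKM in Control. In OX-LDL it stood at 17.6, 17.6 and 19.2 FPKM, above every Control library. The log2 fold change was 0.53 ± 0.080 (SE, adjusted p = 0.00909).

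EGLN3 (ENSG00000129521, chromosome 14, 33924231 to 34222953) is the family member whose transcript is known for the strongest rise in low oxygen. It stood at 0.415, 0.235 and 0.344 FPKM in Control and at 1.33, 1.36 and 1.26 FPKM in OX-LDL. The groups were far apart, although the level stayed the lowest of the 3 hydroxylases. Its log2 fold change was 2.01 ± 0.23 (SE, adjusted p = 0.00433).

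EGLN2, the hydroxylase not known as a HIF target, stood at 5.38, 5.36 and 5.17 FPKM in Control and at 4.85, 4.77 and 4.38 FPKM in OX-LDL. Every OX-LDL library was lower, but the log2 fold change of -0.15 (95% interval -0.34 to 0.034) had an adjusted p-value of 0.246. Of the summed FPKM of the 3 hydroxylases, EGLN1 made 68.4% to 70.7% in Control and 74.0% to 77.3% in OX-LDL, and EGLN3 made 1.23% to 2.19% and 5.08% to 5.73%. The makeup of the family thus moved towards EGLN1 and EGLN3, with no overlap between the groups for either.

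VHL, the subunit of the ubiquitin ligase that binds hydroxylated HIF, stood at 4.27, 4.35 and 10.8 FPKM in Control and at 7.22, 3.78 and 7.93 FPKM in OX-LDL. The libraries of each group were spread more widely than the groups differed. Its log2 fold change was -0.0045 with a 95% interval from -1.03 to 1.02 (adjusted p = 0.996), and it was 0.58 with Control replicate 3 left out, 0.26 with OX-LDL replicate 2 left out and below 0 for the others, with no adjusted p-value under 0.05. HIF1AN, the asparagine hydroxylase, stood at 6.48, 6.48 and 6.23 FPKM in Control and at 6.97, 7.78 and 7.02 FPKM in OX-LDL. Its libraries did not overlap, and its log2 fold change of 0.21 (95% interval 0.037 to 0.39) had an adjusted p-value of 0.106. NDUFB8 and a row named AL133352 lie on the opposite strand of HIF1AN.

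Of the carbonic anhydrases, which help to control pH outside the cell, CA9 was called and CA12 was not. CA9 (ENSG00000107159, chromosome 9, 35673918 to 35681159) is one of the most used markers of HIF-1 activity. It had 0, 11 and 4 counts in Control, none above the detection limit. The OX-LDL libraries had 43, 107 and 93 counts. In FPKM it was listed at 0.0001, 0.075 and 0.0254 in Control and stood at 0.358, 0.727 and 0.633 in OX-LDL. Every OX-LDL library was above the limit, and CA9 was at least 6.82-fold higher when set against 12 counts per Control library. In edgeR's fit its adjusted p-value was 0.0323, and it was 0.0886 when Control replicate 3 was left out and 0.0664, 0.0702 and 0.0931 for OX-LDL replicates 1, 2 and 3. CA9 passed the minimum of 0.1 FPKM only through its OX-LDL libraries, so these p-values are not read as support. ARHGEF39 lies on its opposite strand. CA12 stood at 2.01 to 2.5 FPKM in Control and at 1.56 to 2.04 FPKM in OX-LDL, with overlapping groups and a log2 fold change of -0.39 (adjusted p = 0.153).

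All 3 mitochondrial targets were called higher, beside 7.91% of all tested genes. BNIP3 (ENSG00000176171, chromosome 10, 131966455 to 131982013), a receptor on the outer mitochondrial membrane that recruits the autophagy machinery, stood at 17.6, 14.8 and 15.6 FPKM in Control. In OX-LDL it stood at 55.2, 55.8 and 61.4 FPKM, more than 3 times the level of any Control library. The log2 fold change of BNIP3 was 1.88 ± 0.098 (SE, adjusted p = 0.000365), the smallest adjusted p-value of the 32 genes. BNIP3 has processed pseudogenes that may share its reads, the one named BNIP3P1 having 5 to 32 counts in Control and 33 to 59 in OX-LDL, few beside those of BNIP3 itself. On its opposite strand lie 2 rows named AL162274.

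BNIP3L, its paralogue with the same role, stood at 32.6, 29.0 and 28.0 FPKM in Control and at 38.6, 45.7 and 43.5 FPKM in OX-LDL. The groups did not overlap, with a log2 fold change of 0.55 ± 0.10 (SE, adjusted p = 0.0163). The adjusted p-value was 0.0647 with Control replicate 2 left out and 0.0611 with OX-LDL replicate 3 left out. The ratio of BNIP3 to BNIP3L FPKM was 0.539, 0.511 and 0.557 in Control and 1.43, 1.22 and 1.41 in OX-LDL. BNIP3L was thus the more abundant of the pair in each Control library and BNIP3 in each OX-LDL library.

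FAM162A, a mitochondrial protein linked to cell death in low oxygen, stood at 9.79, 9.21 and 9.71 FPKM in Control and at 11.7, 14.1 and 11.5 FPKM in OX-LDL. The groups did not overlap, and the log2 fold change was 0.41 ± 0.10 (SE, adjusted p = 0.0428). This call was the least stable of the 20, since leaving out any of the 6 libraries gave an adjusted p-value of 0.0546 to 0.137. WDR5B lies on its opposite strand.

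The secreted vascular factors moved in opposite directions. VEGFA (ENSG00000112715, chromosome 6, 43770184 to 43786487), the main growth factor for endothelial cells, stood at 19.5, 22.2 and 14.7 FPKM in Control and at 5.81, 4.77 and 5.82 FPKM in OX-LDL. No OX-LDL library came near the Control range. Its log2 fold change was -1.75 ± 0.16 (SE, adjusted p = 0.00208), the largest fall among the 32 genes. ADM (ENSG00000148926, chromosome 11, 10305073 to 10307397), which encodes the vasodilator peptide adrenomedullin, stood at 0.688, 0.84 and 0.786 FPKM in Control and at 1.75, 1.2 and 1.95 FPKM in OX-LDL. It rose with a log2 fold change of 1.10 ± 0.24 (SE, adjusted p = 0.0258), from a level well under that of VEGFA. The adjusted p-value of ADM was 0.0783, 0.0774 and 0.0661 without Control replicates 1, 2 and 3, and 0.085 and 0.0921 without OX-LDL replicates 1 and 3. The ratio of VEGFA to ADM FPKM was 28.4, 26.4 and 18.6 in Control and 3.33, 3.99 and 2.98 in OX-LDL.

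**Figure D3:**
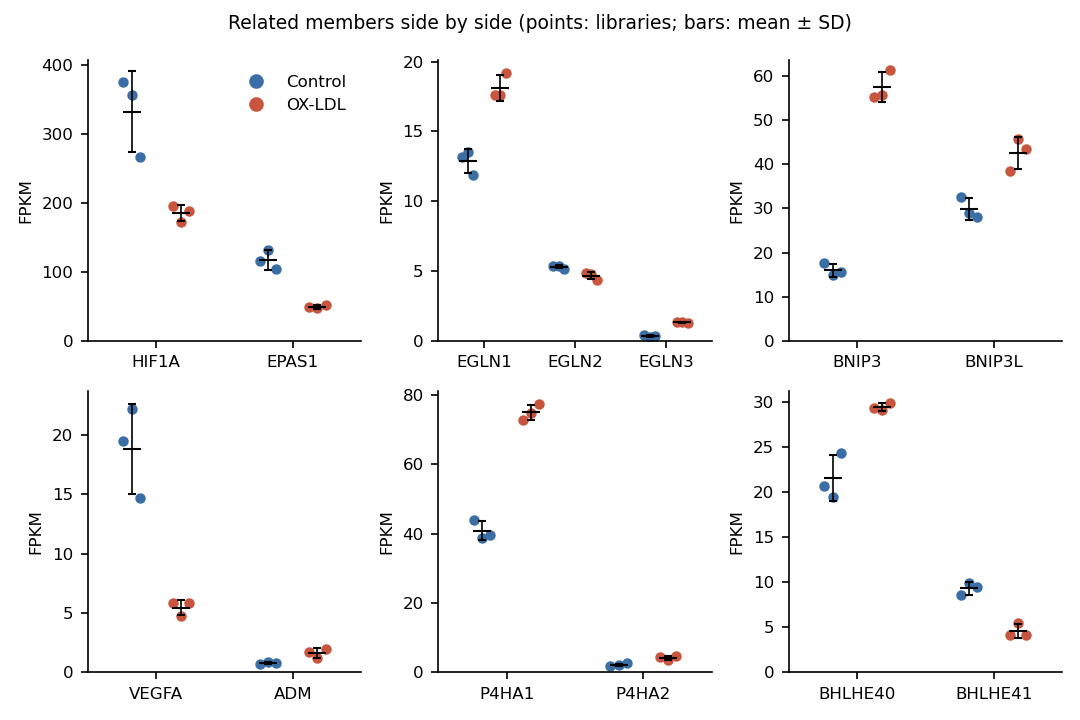
FPKM of related genes side by side in Control and OX-LDL, with points for the libraries and bars for the mean ± SD (n = 3 libraries per group). The plot shows HIF1A and EPAS1 both lower, BNIP3 passing BNIP3L, and VEGFA and ADM moving in opposite directions.

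None of the 3 histone demethylases was called by edgeR over the 19510 genes. Each had every OX-LDL library above every Control library, as in 16.8% of all tested genes. KDM3A, which removes methyl groups from lysine 9 of histone H3, stood at 7.74 to 8.51 FPKM in Control and at 8.66 to 9.36 FPKM in OX-LDL (log2 fold change 0.18, adjusted p = 0.168). KDM4B stood at 1.08 to 1.39 and 1.56 to 2.06 FPKM (0.54, adjusted p = 0.0657). KDM4C, of the same enzyme family as KDM4B, stood at 1.3 to 1.54 and 1.73 to 1.9 FPKM (0.34, adjusted p = 0.101). SNRPEP2 lies on the opposite strand of KDM4C. At an unadjusted p-value under 0.05, 2 of the 3 would be called, a limit for which the share of all genes was not worked out. DESeq2 called KDM4B (adjusted p = 0.0126) and KDM4C (adjusted p = 0.0467), while limma called 0 of the 3. Over the genes with a mean of 1 FPKM or more alone, edgeR called KDM4B (adjusted p = 0.0434).

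All 4 genes of collagen and disulfide maturation were called higher, beside 7.91% of all tested genes. P4HA1 (ENSG00000122884, chromosome 10, 73007217 to 73096974), a catalytic subunit of the collagen prolyl 4-hydroxylase, stood at 43.9, 38.7 and 39.7 FPKM in Control and at 72.8, 74.8 and 77.2 FPKM in OX-LDL. Each group was tight and the gap between them was wide. The log2 fold change was 0.91 ± 0.080 (SE, adjusted p = 0.00184). A row named RF00019 overlaps P4HA1 on its strand.

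P4HA2, the alternative catalytic subunit, stood at 1.79, 2.06 and 2.59 FPKM in Control and at 4.39, 3.65 and 4.69 FPKM in OX-LDL. It stood far below P4HA1 in both groups, with a log2 fold change of 1.01 ± 0.16 (SE, adjusted p = 0.0107). SLC22A4 lies on its opposite strand. ERO1A (ENSG00000197930, chromosome 14, 52639915 to 52695900), the oxidase that drives disulfide formation in the endoplasmic reticulum, stood at 13.6, 12.4 and 12.8 FPKM in Control. It stood at 20.4, 20.9 and 22.8 FPKM in OX-LDL, again without overlap, with a log2 fold change of 0.76 ± 0.081 (SE, adjusted p = 0.00322).

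PLOD2, the lysyl hydroxylase that sets the type of collagen cross-link, stood at 45.1, 36.8 and 32.0 FPKM in Control and at 50.4, 54.4 and 54.0 FPKM in OX-LDL. The Control libraries were more spread than those of OX-LDL, and the log2 fold change was 0.51 ± 0.13 (SE, adjusted p = 0.0445). This call was lost without Control replicate 2 (adjusted p = 0.139) or 3 (0.0885), and likewise OX-LDL replicate 1 (0.0897), 2 (0.0886) or 3 (0.122). A row named AC107021 lies on the opposite strand of PLOD2.

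The genes of growth control and transcriptional repression were divided, with 3 lower and 2 higher of 6, beside 7.42% and 7.91% of all tested genes. DDIT4 (ENSG00000168209, chromosome 10, 72273924 to 72276036), an inhibitor of the growth kinase complex mTORC1, was the third most abundant member in Control. It stood at 104, 98.1 and 86.2 FPKM in Control and at 37.8, 59.9 and 43.2 FPKM in OX-LDL. The groups did not overlap, and the log2 fold change was -1.001 ± 0.18 (SE, adjusted p = 0.0149). The adjusted p-value was 0.0554 when Control replicate 2 was left out and 0.0611 for OX-LDL replicate 3.

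The paralogous repressors BHLHE40 and BHLHE41, which also act in the circadian clock, moved apart. BHLHE40 stood at 20.7, 19.5 and 24.4 FPKM in Control and at 29.4, 29.1 and 29.9 FPKM in OX-LDL. The OX-LDL libraries lay close together above every Control library, and the log2 fold change was 0.48 ± 0.099 (SE, adjusted p = 0.0218), with adjusted p-values of 0.0674, 0.0642, 0.0669 and 0.0783 without Control replicates 1 and 2 and OX-LDL replicates 1 and 3. BHLHE41 (ENSG00000123095, chromosome 12, 26120030 to 26125037) fell instead. It stood at 8.59, 9.97 and 9.45 FPKM in Control and at 4.19, 5.53 and 4.17 FPKM in OX-LDL, with a log2 fold change of -0.98 ± 0.14 (SE, adjusted p = 0.00738). SSPN lies on its opposite strand. The ratio of BHLHE40 to BHLHE41 FPKM was 2.41, 1.95 and 2.58 in Control and 7.01, 5.26 and 7.18 in OX-LDL.

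MXI1, which opposes MYC on shared target genes, stood at 7.27, 8.97 and 8.76 FPKM in Control and at 5.45, 6.59 and 5.82 FPKM in OX-LDL. It was called lower with a log2 fold change of -0.45 ± 0.11 (SE, adjusted p = 0.0409). The call was lost without Control replicate 2 (adjusted p = 0.132) or 3 (0.107), and likewise OX-LDL replicate 1 (0.126) or 3 (0.129). NDRG1, a stress-responsive gene of growth and differentiation, stood at 9.64, 10.4 and 11.9 FPKM in Control and at 12.7, 15.6 and 16.1 FPKM in OX-LDL. It was called higher with a log2 fold change of 0.51 ± 0.12 (SE, adjusted p = 0.0374), although the highest Control and lowest OX-LDL libraries lay close. Its adjusted p-value was 0.106, 0.122, 0.0827 and 0.121 without Control replicates 1 and 2 and OX-LDL replicates 2 and 3. WSB1, a substrate receptor of a ubiquitin ligase, stood at 7.25 to 8.47 FPKM in Control and at 7.34 to 8.7 FPKM in OX-LDL, with a 95% interval of its log2 fold change from -0.19 to 0.25.

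Among the remaining targets, PPFIA4 was called higher. PPFIA4 (ENSG00000143847, chromosome 1, 203026498 to 203078740) belongs to the liprin family of scaffold proteins. It stood at 0.498, 0.586 and 0.28 FPKM in Control and at 2.58, 2.08 and 2.45 FPKM in OX-LDL. This was the largest fitted rise among members detected in both groups, with a log2 fold change of 2.40 ± 0.27 (SE, adjusted p = 0.00402).

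The other 3 were not called. HILPDA, which blocks lipolysis at the lipid droplet, stood at 3.21 to 4.69 FPKM in Control and at 4.7 to 5.54 FPKM in OX-LDL (log2 fold change 0.40, adjusted p = 0.161). TMEM45A stood at 1.09 to 1.37 and at 1.57 to 1.76 FPKM (0.45, adjusted p = 0.0724). DESeq2 called TMEM45A (adjusted p = 0.0169), as did edgeR over genes with a mean of 1 FPKM or more (adjusted p = 0.0499). ANKRD37 stood at 0.5, 0.526 and 0.863 FPKM in Control and at 1.82, 0.839 and 1.26 FPKM in OX-LDL. Its groups overlapped, and its log2 fold change of 1.07 passed the limits of the study. Its adjusted p-value was 0.0947 in edgeR and 0.0219 in DESeq2. A row named AC010655 overlaps HILPDA on its strand, and UFSP2 lies opposite ANKRD37.

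The 4 ratios between related members were chosen after their values had been seen. An exact permutation test on each (two-sided, log2 ratios, 3 against 3 libraries) gave p = 0.1, the smallest p-value that this design allows, and 0.1 after adjustment over the 4. Leaving out a library kept 11 of the 20 called members past the threshold in all 6 fits, and the same 11 were called under every other alternative that tested them (EGLN3 was under the minimum of 1 FPKM). They were HIF1A, EPAS1, EGLN1, EGLN3, BNIP3, VEGFA, P4HA1, P4HA2, ERO1A, BHLHE41 and PPFIA4. Each of the 20 kept its direction in every fit.

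**Figure D4:**
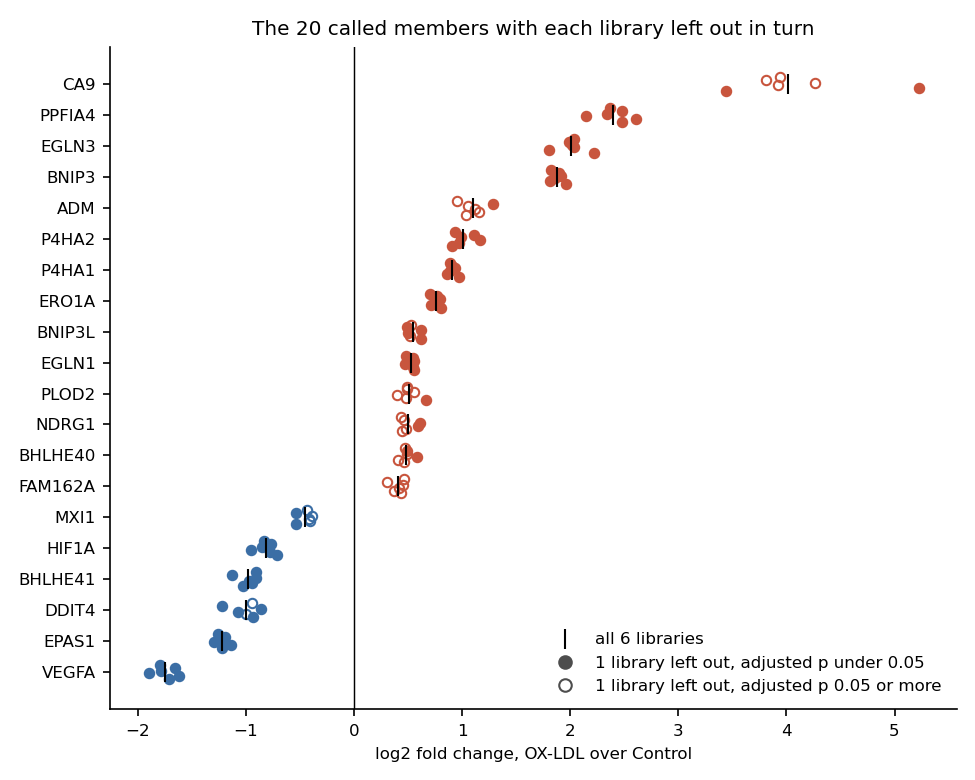
Log2 fold change (OX-LDL over Control) of the 20 called members when each library was left out in turn, with filled points for an adjusted p-value under 0.05, open points for a larger one and a bar for all 6 libraries. Each gene stayed on its side of 0, and 11 genes have filled points only.

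Other genes of the pathway were compared from lists grouped by function, which were chosen with earlier results of these data known. Of 23 glycolytic HIF targets, 18 were called higher and 1 lower (median log2 fold change 0.56). These make 78.3% and 4.35%, beside 7.91% and 7.42% of all tested genes. The kinase PFKFB4, which sets fructose 2,6-bisphosphate, stood at 1.39, 1.43 and 0.906 FPKM in Control and at 4.81, 5.09 and 5.25 FPKM in OX-LDL (log2 fold change 2.05). PDK1, which limits entry of pyruvate into mitochondria, had a log2 fold change of 1.45, LDHA, which makes lactate, had 1.36, and PGK1, a glycolytic kinase, had 1.24. The lactate exporter SLC16A3 rose by 0.99 on the log2 scale, while the related transporter SLC16A1 was lower at -0.58. Beside these, the 24 non-glycolytic targets had a median of 0.49 with 4 genes called lower, and the difference between the lists was not tested. The 18 became 11 with Control replicate 2 left out and 10 with OX-LDL replicate 3 left out.

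Among 15 tested genes that assist or restrain HIF, 2 were called higher and 3 lower (median log2 fold change -0.048). Of all tested genes, 7.91% were called higher and 7.42% lower. At mean levels of 1 FPKM or more these shares were 11.0% and 10.3%. Whether so short a list differed from these shares was not tested. The coactivators CREBBP and EP300, which HIF needs for transcription, were both lower, at -0.67 and -0.31. ING4, linked to repression of HIF, was lower at -0.64, and the chaperone HSP90AA1 and the lectin OS9 were higher at 0.59 and 0.26. HIF3A, the third alpha subunit, was too low to test, with 22, 13 and 7 counts in Control and 3, 0 and 0 in OX-LDL. The 2 higher calls became 1 with Control replicate 1 or OX-LDL replicate 2 left out and 0 for the others, and the 3 lower calls became 1 without any of 4 libraries (Control replicates 1 and 2, OX-LDL replicates 1 and 3).

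Of 24 tested hypoxia targets outside both groups, 6 were called higher and 4 lower, with a median of 0.24. These make 25.0% and 16.7%, beside 7.91% and 7.42% of all tested genes. IGFBP3, which binds insulin-like growth factors, stood at 7.69, 5.77 and 8.53 FPKM in Control and at 22.0, 13.7 and 22.0 FPKM in OX-LDL (log2 fold change 1.42). The collagen cross-linking oxidase LOX had a log2 fold change of 0.96 and the secreted protein ISM1 had 1.27, whereas the secreted glycoprotein STC2 was lower at -0.94 and the transcription factor KLF10 at -0.57. EPO, the kidney's best known HIF target, had 0 counts in each library. When 1 library was left out, the higher calls fell to 3 (OX-LDL replicate 1) and to 2 (Control replicate 2 or OX-LDL replicate 3). The lower calls fell to 2 (Control replicate 3) and to 1 (Control replicate 2 or either of OX-LDL replicates 1 and 3).

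VEGFA and DDIT4, both lower here, are also known targets of ATF4, a transcription factor of amino acid and endoplasmic reticulum stress. Of 16 genes of that response, 14 were called lower and 1 higher, with a median log2 fold change of -1.98. These make 87.5% and 6.25%, beside 7.42% and 7.91% of all tested genes. This list, too, was chosen with earlier results of these data known. ASNS, which makes asparagine, stood at 39.7, 40.5 and 41.6 FPKM in Control and at 5.61, 3.36 and 4.67 FPKM in OX-LDL (log2 fold change -3.13). NUPR1 had a log2 fold change of -4.38, the cystine transporter SLC7A11 had -2.94, DDIT3, a factor of stress-induced cell death, had -2.64, and CTH, which makes cysteine, had -2.60. ATF4 itself was lower at -0.59. ATF5 was the gene called higher, at 1.11, and this call was lost without any of 4 libraries (Control replicates 1 and 2, OX-LDL replicates 1 and 3), while the number of lower calls was 14 in each of the 6 fits that left out a library. The part of this response in the values of VEGFA and DDIT4 was not tested.

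**Figure D5:**
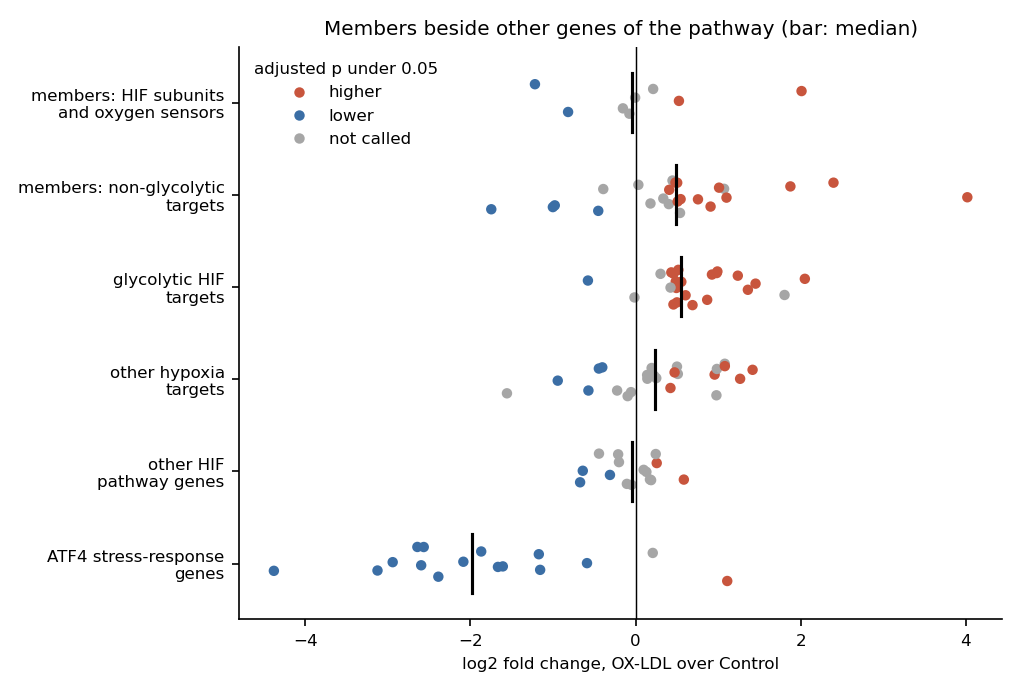
Log2 fold changes (OX-LDL over Control) of the tested members, split into regulators and targets, beside 4 lists of other genes, with 1 point per gene coloured by its call and a bar at the median. The glycolytic and non-glycolytic targets have medians of 0.56 and 0.49, the regulators lie on both sides of 0, and the ATF4 genes have a median of -1.98.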

How the data were processed

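The authors sequenced poly(A) RNA as read pairs from strand-marked libraries. The submitters' processing notes name cutadapt 1.9, HISAT2 2.0.4, StringTie 1.3.4d, edgeR, DESeq2 and GRCh38. The deposited table holds estimated counts, whole as deposited and not scaled for library size, and FPKM, which the authors scaled by transcript length and library size and listed at 0.0001 where the count was 0. Counts of 4, 8 and 12 were in excess, which was read as 4 counts per read pair, or 15640337 to 19199402 read pairs per library.

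Each gene whose mean reached 0.1 FPKM was tested on the counts with edgeR 4.0.16 (TMM factors, glmQLFit and glmQLFTest, group as the only term, R 4.3.3) and p-values were adjusted (Benjamini-Hochberg) over the 19510 genes tested. Standard errors were taken as |log2 fold change| / sqrt(F). DESeq2 1.42.0, limma 3.58.1 on log2(FPKM + 0.1, 1 or 0.01), RLE factors, library size only, counts divided by 4, a minimum of 1 FPKM, no minimum, a replicate block and leaving out each library were alternatives. The script was tested on simulated data. On read pairs, the chi-square per gene between libraries of a group was 14.3 to 24.8, so none was a copy.

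The members and lists were chosen with earlier results of these data known. Every member is named, and FPKM is given per library for each called member and for the main regulators. Up to 5 called genes at or above a mean of 1 FPKM, those with the largest absolute change, are named per list, and SLC16A1, ATF4, ATF5, HIF3A and EPO were named after their values had been seen. Coordinates are those of the table, of which 81.2% were identical in GENCODE release 29. One further gene of the proximal tubule marker list is not reported here.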

Additional observations from a re-analysis of the deposited data

How the results depend on the processing

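Of 509 values of single members under the alternatives, 441 kept their direction and side of the threshold, 50 lost the call, 6 gained it and 12 changed sign. VHL changed sign, with log2 fold changes of 0.0014 (DESeq2), 0.0014 (RLE factors), 0.037, 0.036 and 0.026 (limma with 0.01, 0.1 and 1), 0.0066 (minimum of 1 FPKM), 0.066 (replicate block), 0.58 (Control replicate 3 left out) and 0.26 (OX-LDL replicate 2 left out), the range with 1 library left out being -0.23 to 0.58. ARNT changed to 0.070 without OX-LDL replicate 1 (range -0.18 to 0.070). WSB1 changed to -0.022 with Control replicate 3 left out and to -0.032 with OX-LDL replicate 1 left out (range -0.032 to 0.083). None of these was called. Leaving out 1 library, which also leaves fewer samples, gave 7 to 10 members called higher and 4 to 6 lower, 619 to 1473 of all genes higher and 537 to 1470 lower, 10 to 17 glycolytic genes higher, 0 to 1 other HIF pathway genes higher and 1 to 3 lower, 2 to 5 other hypoxia targets higher and 1 to 4 lower, 0 to 1 ATF4 genes higher, and 14 to 25 genes of the GO terms for hypoxia higher and 13 to 30 lower. Other HIF pathway genes called higher were 1 with library size only, limma (any pseudocount), no minimum or the replicate block. Other hypoxia targets called lower were 2 with no minimum. With the replicate block, 854 of all genes were higher and 782 lower, and 3 other hypoxia targets were higher and 2 lower. Deviations from the group mean were nearly uncorrelated between same-numbered libraries (correlations of -0.041, -0.0031 and 0.036). Whether the replicate numbers pair the samples is not stated, and these values cannot decide it. The block left 10 members called higher (4.38% of all genes) and 6 lower (4.01%). Members called higher were 18 with DESeq2, where 13.6% of all genes with an adjusted p-value were, 12 with limma (6.64% to 6.87%) and 11 with no minimum (3.77%). The cause of these differences was not tested. Depth limits CA9, with at most 11 counts in any Control library, and ARNT2, with at most 62 counts in any library.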

Other observations

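The deposited table annotates 287 genes with the Gene Ontology terms for the response or cellular response to hypoxia, and 18 of the 33 members are among them. Of the other 269 genes, 192 were tested, with 25 called higher and 25 called lower (13.0% each, beside 7.91% and 7.42% of all tested genes) and a median log2 fold change of -0.0064. The matrix glycoprotein THBS1 rose from 26.6 ± 3.5 FPKM in Control (SD, n = 3) to 74.3 ± 8.45 FPKM in OX-LDL and CD24, a surface glycoprotein, from 96.2 ± 26.6 to 232 ± 65.2 FPKM. The potassium channel KCNK3 fell from 18.8 ± 1.26 to 6.34 ± 1.17 FPKM, the growth factor BMP2 from 3.49 ± 1.07 to 1.25 ± 0.246 FPKM and ATP1B1, a subunit of the sodium pump, from 229 ± 74.7 to 89.8 ± 19.5 FPKM. The 25 higher calls became 14 when Control replicate 2 was left out and 15 for OX-LDL replicate 3, and the 25 lower calls became 13, 15 and 14 without Control replicate 2, OX-LDL replicate 1 and OX-LDL replicate 3.

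Transcripts from the opposite strand of the HIF1A locus were also counted. HIF1A-AS1 had 135, 168 and 66 counts in Control and 53, 55 and 39 in OX-LDL, and HIF1A-AS2 had 56, 103 and 52 counts in Control and 76, 85 and 121 in OX-LDL. The groups overlapped for HIF1A-AS2 and not for HIF1A-AS1, and no test of these 2 transcripts is given.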
